A study of Homo sapiens with 24 samples.

Results

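The control states of one cell line were compared here: U937 cells with a scrambled hairpin (3 libraries) and U937 cells with DMSO (3 libraries). They are 6 of the 24 RNA-seq libraries of the study. The libraries were taken by their labels alone, not by any measured value. U937 is an established human line of myelomonocytic cells in suspension culture. The scrambled group is labelled as scrambled shRNA, a hairpin meant to match no gene, and the DMSO group is labelled Mock. The other 18 libraries, 3 in each of 6 groups, came from cells with 2 or 4 µM UNC0638, an inhibitor of the histone methyltransferases G9a and GLP, with hairpin 2 or 3 against G9a, or with hairpin 2 or 4 against SUV39H1. DMSO is the usual solvent of such an inhibitor and therefore its natural control, and the scrambled hairpin is that of the targeting hairpins. All groups share the same line, and the labels give neither control a targeting reagent. Per the labels, the G9a and SUV39H1 hairpins were brought in by lentivirus with 3 days of puromycin selection, and cells with UNC0638 were harvested after 3 days. The labels state neither virus nor selection for the scrambled cells, and no harvest time for the DMSO cells. Hairpin, virus, selection, solvent and time in culture therefore cannot be told apart in this comparison, and the labels name no second scrambled hairpin. The labels do not say whether the replicates were separate cultures, so p-values measure only the spread between these libraries.

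Several programmes that differ between the controls have well-known regulators, given here as background. Hypoxia-inducible factor (HIF) is held down by oxygen-dependent prolyl hydroxylases and, when it accumulates, drives glucose transporters, glycolytic enzymes and the hypoxia genes of nearly every cell type. Sterol regulatory element-binding proteins (SREBPs) drive cholesterol synthesis and uptake when membrane sterol is low. The transcription factor MYC drives ribosome biogenesis in growing cells, and type I interferon induces antiviral genes through STAT2 and IRF9.

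The 6 libraries held 31851239 to 52218785 gene counts. Log2 CPM (CPM being the count scaled to the TMM-corrected library size) correlated at 0.9973 to 0.9988 within the groups and at 0.9950 to 0.9962 between them, across genes. DMSO replicate 1 stood apart most: the chi-square per degree of freedom was 10.2 and 22.1 between it and the other DMSO libraries, 2.91 between those and 2.08 to 8.21 between scrambled libraries. Without it 6742 genes were called in place of 6321.

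Of 55773 gene names, 20147 passed a filter on low counts, and 6321 of these (31.4%) differed between scrambled and DMSO in edgeR's quasi-likelihood test at a Benjamini-Hochberg adjusted p under 0.05. These are referred to as called. In scrambled cells 2993 genes (14.9%) were higher and 3328 (16.5%) lower. Most of the changes were small. At least 2-fold changes were found for 63 higher genes (0.313%) and 229 lower genes (1.14%), so the large changes lay mainly on the side of lower levels in scrambled cells. When the model used only the 6 libraries, 4345 genes were called, 2060 higher and 2285 lower. The number of large rises was 39 in that model and 35 with DESeq2. The median log2 change of all genes was -0.01.

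**Figure D1:**
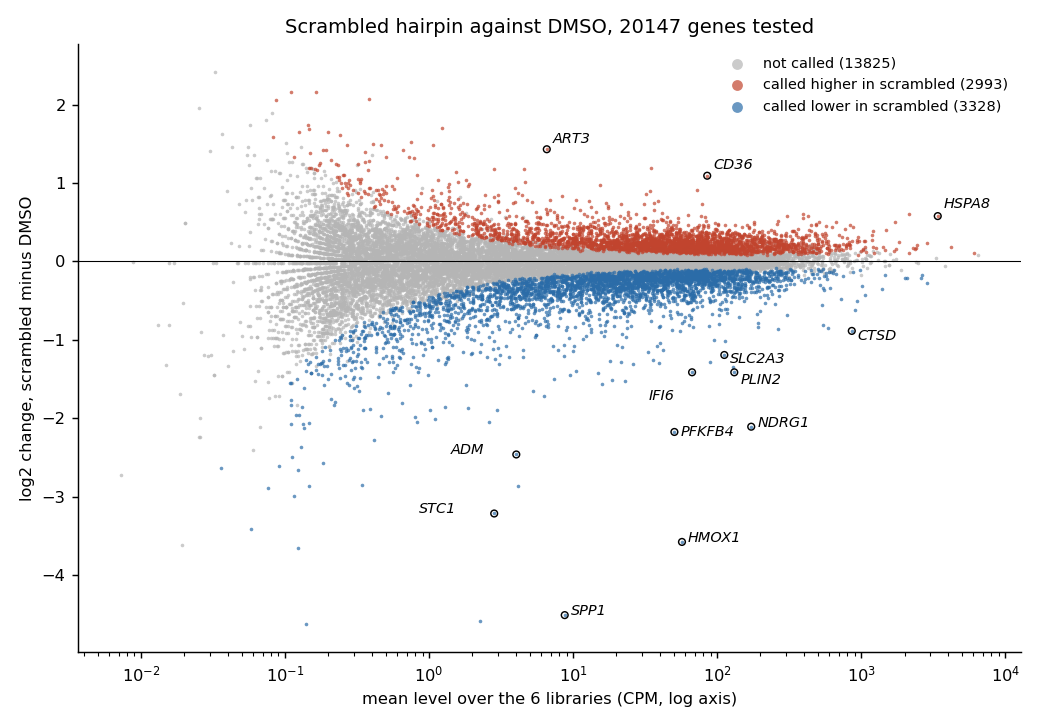
Log2 change (scrambled minus DMSO) of each gene tested against its mean level over the 6 libraries in CPM (log axis). Red and blue points passed an adjusted p of 0.05 and circles mark named genes. One gene at 0 in all 6 libraries is not drawn. SPP1 at -4.51 and HMOX1 at -3.58 lie far below 0, and the largest labelled rise is that of ART3 at 1.43.

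Hypoxia and glycolysis genes were lower in scrambled cells, several of them strongly. Of 36 members tested, 29 were lower in scrambled cells and the other 7 did not pass, against 16.5% of all genes lower, and the median log2 change of the list was -0.42. Summed over the list, the level was 16454 to 17243 CPM in the scrambled libraries and 18604 to 21085 CPM in the DMSO libraries. The counts of every gene list below stand beside the same shares over all genes, 14.9% higher and 16.5% lower.

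PFKFB4, a bifunctional enzyme that sets the level of the glycolytic activator fructose 2,6-bisphosphate, was at 78.6, 82.8 and 86.8 CPM in the DMSO libraries and 18.2, 18 and 18.6 CPM in the scrambled libraries. The groups were far apart, and the scrambled libraries agreed closely among themselves (log2 change -2.18 ± 0.05 SE, adjusted p = 6.09e-22, edgeR). NDRG1, a stress gene strongly induced by hypoxia, was at 258, 286 and 295 CPM with DMSO and 63.2, 62.4 and 69.2 CPM with the scrambled hairpin (log2 change -2.11 ± 0.06 SE, adjusted p = 6.63e-19, edgeR). SLC2A3, the high-affinity glucose transporter GLUT3, was at 158, 157 and 154 CPM against 67.4, 69 and 68.3 CPM, a 2.29-fold lower level in scrambled cells. SLC2A3 has a near-identical copy, SLC2A14, with which it may share reads.

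Some weakly expressed members fell further. STC1, a glycoprotein hormone, was at 5.84, 4.82 and 4.63 CPM with DMSO and 0.634, 0.355 and 0.712 CPM with the scrambled hairpin (8.996-fold lower). ADM, the precursor of the vasodilator adrenomedullin, went from 7.1, 6.56 and 6.85 to 1.03, 1.32 and 1.32 CPM (5.59-fold lower). MIR210HG, the host transcript of the hypoxia microRNA miR-210 and no member of the list, went from 6.61, 7.55 and 7.53 to 1.06, 0.847 and 1.1 CPM (7.21-fold lower). In each of these genes every scrambled library lay below every DMSO library. TMEM45A, PPFIA4 and HTRA3, no list members but among the largest falls, were 3.26-fold, 2.87-fold and 4.06-fold lower.

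DDIT4, an inhibitor of the growth kinase mTORC1, was at 50.5, 57 and 59.8 CPM with DMSO and 23.8, 23.3 and 21.3 CPM with the scrambled hairpin. ENO2, the neuronal form of enolase, was at 50.2, 55 and 56.2 CPM and 25, 26.6 and 26.4 CPM. KDM3A, an oxygen-dependent demethylase of H3K9 that is itself a hypoxia gene, was at 132, 126 and 122 CPM and 64, 65.2 and 60 CPM. In each of these genes the groups were clear of each other. Further members, picked after their values were seen, fell as well: P4HA1, a collagen prolyl hydroxylase subunit, fell by 1.34, the mitophagy receptor BNIP3L by 1.29 and BNIP3 by 1.15 on the log2 scale. PDK1, which keeps pyruvate out of the mitochondrion, fell by 0.82.

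The abundant glycolytic enzymes changed by much less. ENO1, the main enolase, was at 2817, 3195 and 3433 CPM with DMSO and 2567, 2531 and 2731 CPM with the scrambled hairpin (log2 change -0.27 ± 0.06 SE, adjusted p = 0.000511, edgeR). ALDOA, the main aldolase, was at 1321, 1608 and 1763 CPM and 1188, 1171 and 1318 CPM (log2 change -0.35 ± 0.08 SE, adjusted p = 0.000876, edgeR). In both genes DMSO replicate 1 was the lowest DMSO library, and in ALDOA it lay only just above scrambled replicate 3. The 7 members that did not pass included SLC2A1, VEGFA, TPI1 and GAPDH, with log2 changes of -0.11, -0.03, -0.02 and 0.05. VEGFA, a classical hypoxia target, was at 275 CPM in DMSO cells and 269 CPM in scrambled cells.

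The 250 bases before the start of 3 members are shown because the hypoxia response element core ACGTG, to which HIF binds, was searched in them. The sequences are those of RefSeq on GRCh38.p14, read 5′ to 3′ on the gene's strand, with each match on either strand in capitals. PFKFB4 had the smallest p of the list, and DDIT4 and ENO2 were picked after their promoters had been read, since they hold the letters.
PFKFB4, chr3:48556804-48557053, minus strand: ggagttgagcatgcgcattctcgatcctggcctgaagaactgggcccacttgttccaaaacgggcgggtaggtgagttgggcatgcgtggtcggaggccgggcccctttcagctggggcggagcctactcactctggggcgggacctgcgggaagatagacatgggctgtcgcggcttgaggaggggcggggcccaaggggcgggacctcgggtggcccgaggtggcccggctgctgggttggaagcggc
DDIT4, chr10:72273674-72273923, plus strand: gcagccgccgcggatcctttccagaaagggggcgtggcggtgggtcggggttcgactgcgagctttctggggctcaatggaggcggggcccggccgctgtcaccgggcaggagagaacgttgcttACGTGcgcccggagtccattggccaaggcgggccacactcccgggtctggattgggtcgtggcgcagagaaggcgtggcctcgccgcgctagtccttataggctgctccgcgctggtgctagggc
ENO2, chr12:6914330-6914579, plus strand: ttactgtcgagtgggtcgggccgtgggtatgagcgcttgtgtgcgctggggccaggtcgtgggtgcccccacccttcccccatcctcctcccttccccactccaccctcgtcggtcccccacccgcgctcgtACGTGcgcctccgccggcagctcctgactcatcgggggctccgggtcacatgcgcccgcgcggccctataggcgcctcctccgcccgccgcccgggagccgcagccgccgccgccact
In DDIT4 the match began 125 bases before the start, in ENO2 118 bases before it, and in PFKFB4 the letters were not in this window. Of 29 members with a promoter in the table, 13 (44.8%) held the letters, and 12 of the 23 lower members (52.2%) did, against 18.7% of 27305 promoters. A match is a description of the letters only. The E-box CACGTG contains ACGTG, so the counts of the motifs overlap.

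HMOX1, haem oxygenase, which breaks down haem and is a target of NRF2 and of HIF, was at 94.9, 106 and 115 CPM with DMSO and 9.05, 8.65 and 8.73 CPM with the scrambled hairpin. It was 11.9-fold lower in scrambled cells (log2 change -3.58 ± 0.07 SE, adjusted p = 4.66e-23, edgeR), which was the smallest p of all genes. In hg19 the gene lies at chr22:35776354-35790207. The other oxidative stress genes moved less, and the highest log2 change in their list was 1.63. Of 24 members of the list of oxidative stress and NRF2 targets, 13 were lower and 3 higher, with a median log2 change of -0.21. FTH1, the heavy chain of the iron store ferritin, was at 347, 392 and 394 CPM and 225, 231 and 248 CPM, 1.61-fold lower. FTL, the light chain, was at 5810.4, 5929 and 5872 CPM and 6235, 6249 and 6472 CPM and rose by 0.11 on the log2 scale (0.0153 adjusted p, edgeR). That call for FTL was lost with the 6 libraries alone, without a low-count filter and without scrambled replicate 3, and ferritin genes have many copies that may share reads. SRXN1, which repairs oxidised peroxiredoxins, was 1.38-fold lower, and NQO1, a classical NRF2 target, did not pass (log2 change 0.08).

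**Figure D2:**
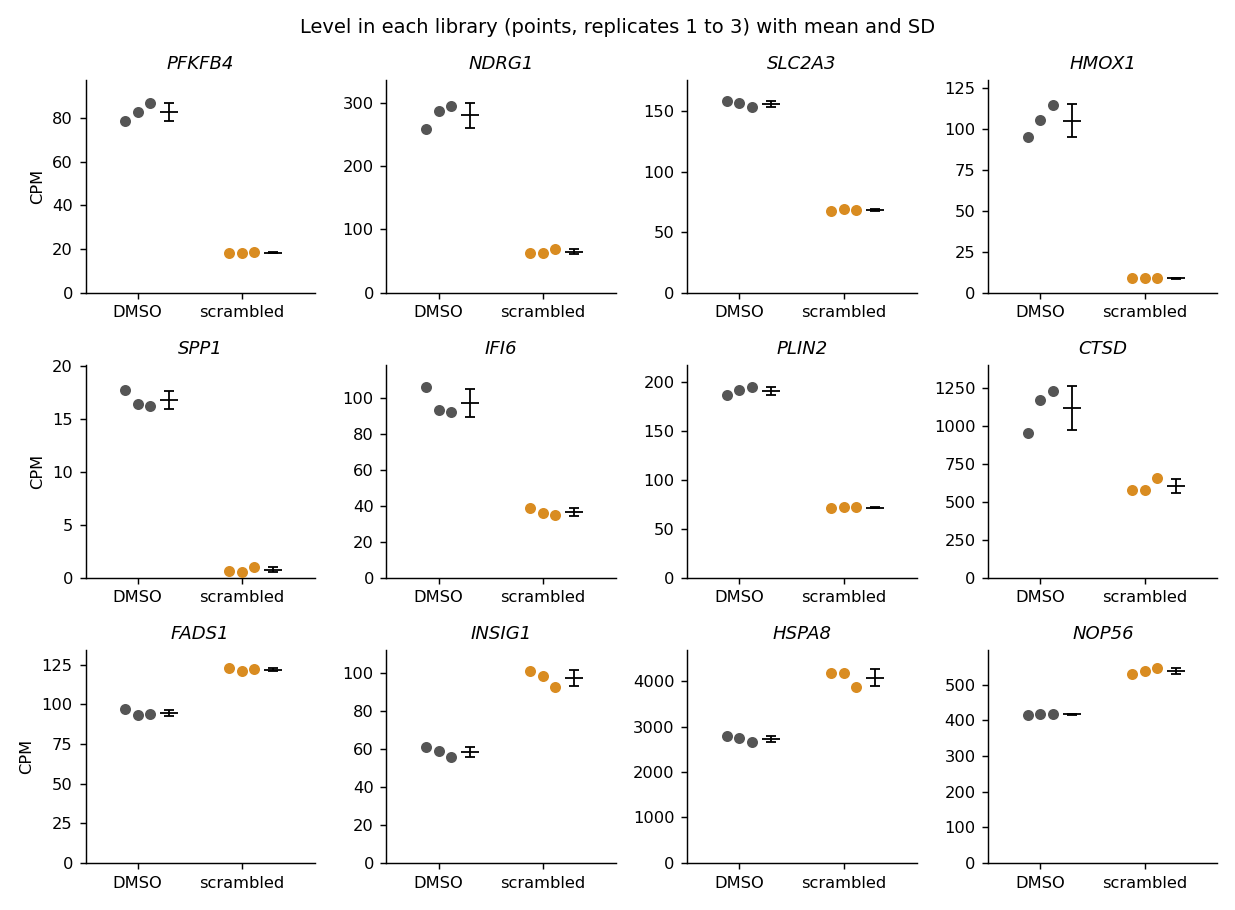
Level in CPM (linear axis from 0) of 12 genes in each of the 3 DMSO and 3 scrambled libraries. Points are libraries and bars the mean ± SD of 3. In each panel the groups do not overlap, and HMOX1 and SPP1 in scrambled cells lie near the bottom of the axis.

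Interferon-stimulated genes were lower in scrambled cells. Of 72 members tested, 50 were lower (16.5% of all genes were) and 2 were higher, and the median log2 change was -0.32. The summed level was 2640.3 to 2678 CPM in the scrambled libraries and 3113 to 3147 CPM in the DMSO libraries. IFI6, an interferon-induced mitochondrial and endoplasmic reticulum protein, was at 106, 93.5 and 92.3 CPM with DMSO and 38.9, 35.9 and 35 CPM with the scrambled hairpin (log2 change -1.41 ± 0.07 SE, adjusted p = 5.5e-14, edgeR). DDX60, a helicase of antiviral sensing, was at 23.1, 20.4 and 19.8 CPM and 12.4, 12.2 and 11.6 CPM. OAS3, which makes the 2-5A messenger that activates RNase L, was at 85.8, 96.9 and 97.4 CPM and 62, 61.7 and 64.9 CPM. In all 3 genes the scrambled libraries lay below the DMSO libraries with a wide gap.

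The only members that were higher were CXCL10 and CXCL11, chemokines that bind CXCR3. CXCL10 was at 3.25, 2.82 and 2.3 CPM with DMSO and 6.52, 6.68 and 5.62 CPM with the scrambled hairpin (log2 change 1.17 ± 0.14 SE, adjusted p = 2.72e-07, edgeR). In hg19 CXCL10 lies inside the span of ART3, which is on the other strand and was higher too. The libraries keep no strand, so the rises of CXCL10 and ART3 cannot be told apart here. CXCL11 was at 2.12, 1.3 and 1.61 CPM and 2.78, 2.68 and 1.77 CPM, so its groups overlapped and it passed only narrowly (adjusted p = 0.0464, edgeR). The transcription factors of the pathway were lower as well. STAT2 fell by 0.53, IRF9 by 0.36 and IRF7 by 0.74 on the log2 scale. IFNB1, the gene of interferon beta, was at 0.0895 CPM with DMSO and 0.0995 CPM with the scrambled hairpin and did not pass.

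Promoters of the 3 named members are shown because they hold the core of the interferon-stimulated response element, GAAA and GAAA with any 2 bases between them, with each match on either strand in capitals. They were picked after the promoters had been read.
IFI6, chr1:27672193-27672442, minus strand: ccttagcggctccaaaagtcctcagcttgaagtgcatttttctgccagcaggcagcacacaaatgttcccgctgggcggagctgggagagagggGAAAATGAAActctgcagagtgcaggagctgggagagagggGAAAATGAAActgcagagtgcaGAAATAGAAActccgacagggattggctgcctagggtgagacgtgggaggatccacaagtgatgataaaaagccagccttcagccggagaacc
DDX60, chr4:168318753-168319002, minus strand: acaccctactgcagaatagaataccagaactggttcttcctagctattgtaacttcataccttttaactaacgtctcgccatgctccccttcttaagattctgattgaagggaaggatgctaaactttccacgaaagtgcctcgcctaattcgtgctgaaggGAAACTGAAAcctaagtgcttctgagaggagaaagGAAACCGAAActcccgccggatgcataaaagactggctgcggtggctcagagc
OAS3, chr12:112938224-112938473, plus strand: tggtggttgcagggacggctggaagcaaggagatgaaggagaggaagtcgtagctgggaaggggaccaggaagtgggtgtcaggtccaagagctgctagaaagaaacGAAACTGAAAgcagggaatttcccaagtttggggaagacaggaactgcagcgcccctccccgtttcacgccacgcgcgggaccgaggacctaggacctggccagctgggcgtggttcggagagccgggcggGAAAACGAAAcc
IFI6 held 3 matches, which began 156, 115 and 93 bases before the start, DDX60 held 2, at 88 and 53 bases, and OAS3 held 2, at 143 and 12 bases. Of 51 members with a promoter in the table, 25 (49.0%) held a match on either strand, and 14 of the 34 lower members (41.2%) did, against 3.07% of 27305 promoters. The share among the lower members was thus not above that of all members.

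Of 24 nucleic acid sensors and interferon receptors, 9 were lower and 2 higher, with a median log2 change of -0.05. IFI16, a DNA sensor, was at 153, 138 and 131 CPM with DMSO and 93.7, 96.8 and 85.4 CPM with the scrambled hairpin. IFIH1 (MDA5) and DDX58 (RIG-I), the cytosolic sensors of double-stranded RNA, were 1.21-fold and 1.45-fold lower. The adaptors MAVS and MYD88 and the kinases TBK1 and JAK1 did not pass, with log2 changes between -0.03 and 0.03.

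Among MHC class I and antigen processing genes 10 of 22 were lower and 5 higher (median -0.15). HLA-E, a ligand of natural killer cell receptors, was at 197, 203 and 211 CPM with DMSO and 155, 155 and 156 CPM with the scrambled hairpin. HLA-B was 1.29-fold lower, though reads of HLA paralogs may be shared. MHC class II genes split, with 5 of 13 lower and 4 higher. CIITA, their master activator, was at 24.2, 26 and 28.6 CPM with DMSO and 18.5, 18.3 and 19.1 CPM with the scrambled hairpin. HLA-DRA, which presents antigen with the beta chains, went the other way, from 29.5, 30.3 and 28.9 to 42.9, 43.3 and 40.8 CPM, while HLA-DPA1 stayed at low levels (0.566 and 1.58 CPM) and was also higher.

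Genes of mature monocytes and macrophages were mostly lower in scrambled cells. Of 30 tested, 18 were lower and 2 higher, and the median log2 change was -0.29. SPP1, osteopontin, a secreted phosphoprotein of macrophages, had the largest fold change of the named genes. It was at 17.7, 16.4 and 16.2 CPM with DMSO and 0.664, 0.552 and 1.01 CPM with the scrambled hairpin (22.6-fold lower, log2 change -4.51 ± 0.16 SE, adjusted p = 1.64e-17, edgeR). CYBB, the membrane subunit of the phagocyte NADPH oxidase and no member of the list, was at 36.1, 34.6 and 31.3 CPM and 11.9, 11.8 and 11.7 CPM. ITGB2, the shared beta chain of the leukocyte integrins, was at 948, 1114 and 1235 CPM and 703, 684 and 768 CPM, and FCGR2B, the inhibitory Fc receptor, was 1.99-fold lower. MMP1, a collagenase and no member of the list, was 3.1-fold lower. The scrambled libraries lay below all DMSO libraries in each of these genes.

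The members that rose were CD36 and LYZ. CD36, a scavenger receptor and fatty acid transporter, was at 59.9, 52.1 and 51.2 CPM with DMSO and 117, 125 and 107 CPM with the scrambled hairpin (log2 change 1.09 ± 0.06 SE, adjusted p = 1.66e-13, edgeR). LYZ, lysozyme, was at 332, 309 and 293 CPM and 488, 479.6 and 453 CPM, and it also counts as a granule gene. Myeloid progenitor and primary granule genes showed no common direction, with 6 of 23 higher, 3 lower and a median of 0.00. Among them CTSG, the granule protease cathepsin G, rose 1.33-fold and GFI1, a transcriptional repressor needed for granulocyte development, rose 1.33-fold. ELANE, the neutrophil elastase, did not pass (log2 change -0.01).

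Lysosome and autophagy genes were lower as a group. Of 36 members, 26 were lower and 10 did not pass, and the median log2 change was -0.21. CTSD, the aspartic protease cathepsin D, was at 953, 1169.9 and 1229 CPM with DMSO and 577, 578 and 659 CPM with the scrambled hairpin (log2 change -0.89 ± 0.08 SE, adjusted p = 1.02e-09, edgeR). DMSO replicate 1 was the lowest DMSO library here and still stood well above the scrambled libraries. CTSB, a cysteine protease, fell by 0.34 on the log2 scale. TFEB and TFE3, the transcription factors of lysosome genes, fell by 0.22 and 0.37 on the log2 scale.

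Sterol synthesis and uptake genes rose together. Of 29 members, 22 were higher (14.9% of all genes were) and 7 did not pass, and the median log2 change was 0.27. INSIG1, an endoplasmic reticulum protein that restrains SREBPs and is induced by them, was at 61, 58.9 and 55.6 CPM with DMSO and 101, 98.4 and 92.8 CPM with the scrambled hairpin (log2 change 0.74 ± 0.05 SE, adjusted p = 2.2e-12, edgeR). FADS1, a fatty acid desaturase, was at 96.9, 93.2 and 93.7 CPM and 123, 121 and 122 CPM. HMGCS1 and SQLE, enzymes of cholesterol synthesis, and FASN, the fatty acid synthase, rose by 0.30, 0.32 and 0.39 on the log2 scale. The sterol regulatory element core TCACNCCA, with N for any base, was in 3 of 22 promoters of the members, against 3.18% of all promoters.

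PLIN2, the coat protein of lipid droplets, was at 187, 192 and 195 CPM with DMSO and 71.1, 72 and 72.1 CPM with the scrambled hairpin (log2 change -1.41 ± 0.04 SE, adjusted p = 1.97e-18, edgeR). CPT1A, which admits fatty acids to the mitochondrion, was 1.32-fold lower. Of the 18 genes of lipid efflux and droplets 8 were lower and 5 higher, and the count of lower members was 3 without DMSO replicate 3, 3 without scrambled replicate 2, 4 without scrambled replicate 1 and 5 without DMSO replicate 2. GLUL, glutamine synthetase, was at 743, 759 and 769 CPM and 417, 413 and 429 CPM. This was among the largest falls in CPM of called genes with groups apart and no clone-based symbol.

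Genes of growth and protein folding were higher in scrambled cells. Of 40 MYC targets and ribosome biogenesis genes, 34 were higher and 6 did not pass, and their median change was 0.30 on the log2 scale. The summed level was 10355 to 10543 CPM in scrambled libraries and 8285 to 8333 CPM in DMSO libraries, a narrow range on both sides. ODC1, the first enzyme of polyamine synthesis and a MYC target, was at 384, 379 and 369 CPM with DMSO and 525, 539.6 and 500.3 CPM with the scrambled hairpin. NOP56, a core protein of box C/D ribonucleoproteins, was at 415, 417 and 418 CPM and 529.5, 539 and 546 CPM, and NCL, nucleolin, was at 1286, 1300.4 and 1257 CPM and 1676, 1730.4 and 1654 CPM. MYC itself rose by 0.39 on the log2 scale (216 ± 11.5 to 283 ± 9.88 CPM, SD, n = 3). The E-box CACGTG was in 3 of 33 promoters of the list, against 6.49% of all promoters.

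Ribosomal protein genes rose by little, with 33 of 78 higher and a median of 0.13. RPL12, the 1 lower member, was not called with the 6 libraries alone. RPS13 was at 541, 519.9 and 509 CPM with DMSO and 655, 627 and 594 CPM with the scrambled hairpin. RPS23 and RPL27A rose 1.23-fold and 1.12-fold. The number of higher ribosomal protein genes was 18 without scrambled replicate 1, and reads of their processed pseudogenes may be shared. EEF1A1, the elongation factor that delivers aminoacyl-tRNA, rose 1.18-fold. Among 57 nuclear-encoded respiratory chain genes 22 were higher and 1 lower (14 higher without scrambled replicate 1). NDUFS3 and NDUFS6, subunits of complex I, rose 1.17-fold and 1.26-fold. The lower one was COX7C, a subunit of cytochrome c oxidase, at 160.5, 147 and 148 CPM with DMSO and 79.6, 74.2 and 71.6 CPM with the scrambled hairpin.

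Of 19 heat shock proteins 13 were higher and 6 did not pass. They gave the 4 largest rises in CPM among called genes with groups apart and no clone-based symbol. HSPA8, the constitutive HSP70, was at 2785, 2751 and 2649.5 CPM with DMSO and 4182, 4179 and 3870.0 CPM with the scrambled hairpin (log2 change 0.58 ± 0.04 SE, adjusted p = 5.33e-12, edgeR). HSP90AA1, the inducible cytosolic HSP90, was at 1885, 1664 and 1542 CPM and 2746, 2691 and 2336 CPM. HSPD1, the mitochondrial chaperonin, rose 1.42-fold, HSPH1, an HSP110, rose 1.47-fold and HSP90AB1 rose 1.14-fold. HSPA1A, HSPA1B and BAG3, the classical stress-inducible members, did not pass, with log2 changes of 0.08, 0.12 and 0.07. Several of these chaperones have near-identical copies or pseudogenes that may share reads. In the endoplasmic reticulum stress and chaperone list 14 of 23 were higher and 4 lower, the higher ones including XBP1 (1.27-fold), MANF (1.27-fold) and CRELD2 (1.31-fold).

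**Figure D3:**
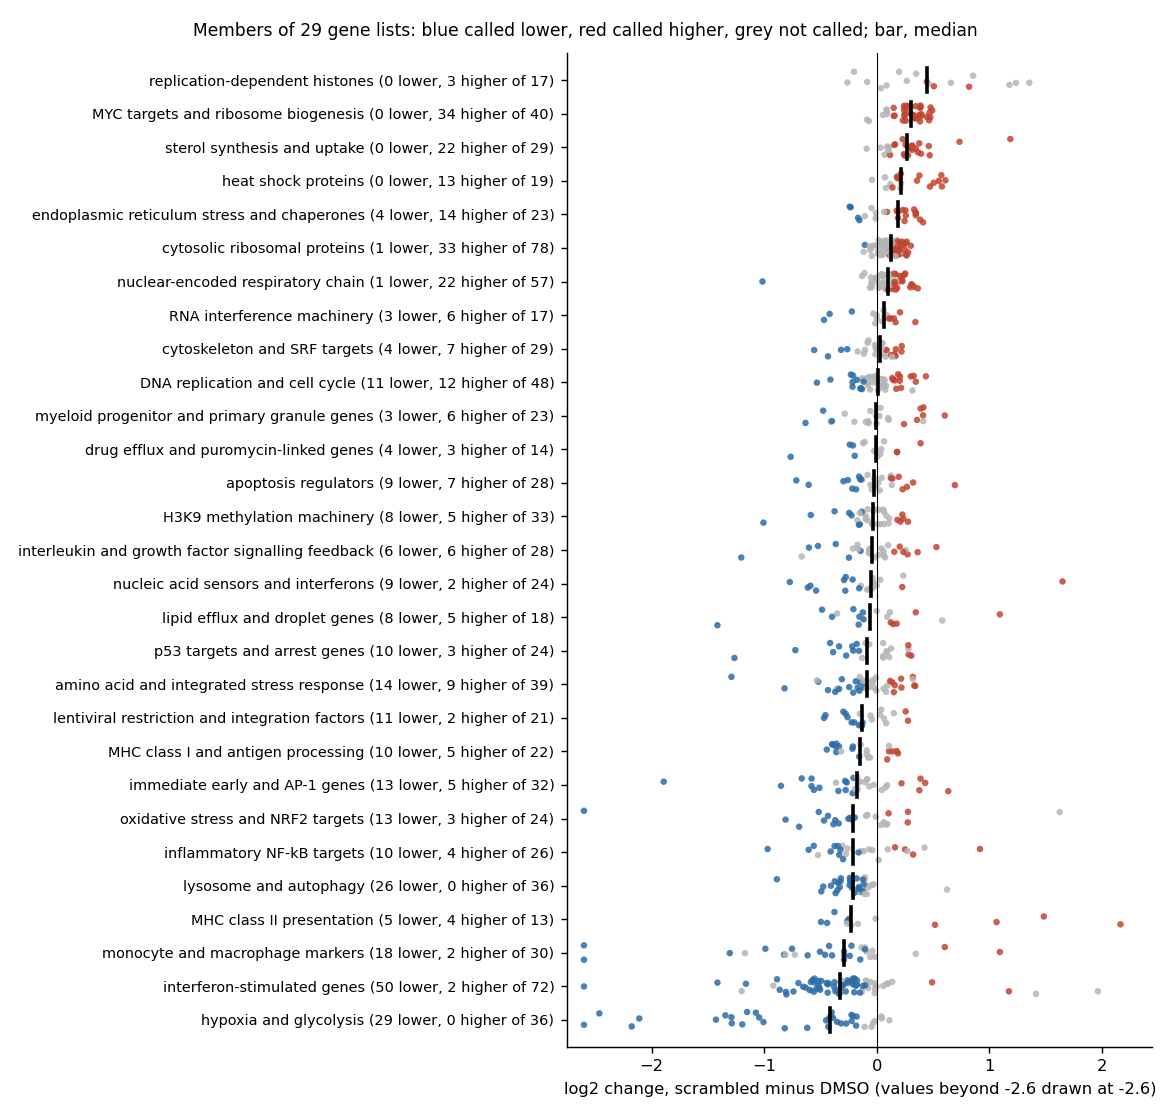
Log2 change (scrambled minus DMSO) of each tested member of 29 gene lists, ordered by the median, with the number called lower and higher beside each name. Points beyond the left limit are drawn at it, and some genes stand in more than 1 list. Hypoxia and glycolysis, interferon-stimulated and lysosome genes lie mostly left of 0, and MYC, sterol and heat shock genes mostly right of it.

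Other lists moved in both directions, beside 14.9% of all genes higher and 16.5% lower. Of 39 amino acid and integrated stress response genes 9 were higher and 14 lower, with ATF4 up 1.26-fold. Without the other 18 libraries in the model these counts were 5 and 8. Of 48 replication and cell cycle genes 12 were higher and 11 lower, with a median of 0.01. CDC6, a licensing factor of replication, rose from 77.2, 73.7 and 71.1 to 100.2, 102 and 97.9 CPM, and KIF20A, a mitotic kinesin, fell from 112, 115 and 120.4 to 87.1, 87.2 and 87 CPM. CDK6, a G1 kinase, was 1.44-fold lower. With the 6 libraries alone 5 of the cell cycle genes were lower, and 7 were lower without scrambled replicate 3. Of 24 p53 targets and arrest genes 10 were lower and 3 higher. BTG2, an antiproliferative gene, fell 1.65-fold and TNFRSF10B, a death receptor, rose 1.22-fold. Without DMSO replicate 1 the number of higher p53 targets was 6.

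Of 32 immediate early genes 13 were lower and 5 higher. KLF2, a transcription factor of quiescent leukocytes, was at 4.69, 4.25 and 4.95 CPM with DMSO and 1.63, 1.26 and 0.932 CPM with the scrambled hairpin, 3.63-fold lower. FOSL2 and KLF10 were 1.59-fold and 1.5-fold lower. Of 26 inflammatory NF-kB targets 10 were lower and 4 higher. IL1B, the inflammatory cytokine, was at 32, 30.8 and 30.2 CPM and 16, 16.2 and 15.3 CPM, and TNFAIP3, an NF-kB inhibitor, was 1.33-fold lower. CCL2, a monocyte chemokine, rose from 51.1, 51.4 and 49.3 to 93.3, 99.1 and 94 CPM (log2 change 0.92 ± 0.05 SE, adjusted p = 5.78e-14, edgeR). In the list of cytokine and growth factor feedback 6 of 28 were higher and 6 lower. BCL6, a repressor, was 2.28-fold lower, PIM1, a kinase, 1.52-fold lower, and IL6R, the interleukin-6 receptor, 1.29-fold higher. Of 28 apoptosis regulators 7 were higher and 9 lower (4 lower with the 6 libraries alone and 5 with DESeq2). BCL2A1, an NF-kB-driven survival gene, was 1.64-fold lower. In the cytoskeleton list, 7 of 29 were higher and 4 lower, VIM falling 1.35-fold and TAGLN2 rising 1.17-fold. Of 17 replication-dependent histones 3 were higher and 14 did not pass, and the tested members summed to 23.5 to 25.2 CPM with DMSO and 30.9 to 36.1 CPM with the scrambled hairpin.

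The remaining large rises were mostly of weakly expressed genes. ART3, of the ADP-ribosyltransferase family, was at 3.92, 2.82 and 3.76 CPM with DMSO and 9.78, 9.56 and 9.54 CPM with the scrambled hairpin (2.75-fold). Its span holds CXCL10 on the other strand, so ART3 and CXCL10 may share reads. IRX3, a homeobox gene, and SLPI, a leukocyte protease inhibitor, rose 1.87-fold and 1.81-fold. NDFIP2, PAGE1, C1orf53, DMWD, DHRS9, ERG, FRMPD2 and KRT9 rose between 1.77-fold and 2.3-fold. In each of them the scrambled libraries lay above the DMSO libraries.

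Lists of genes that handle hairpins, lentiviruses or puromycin were counted as well. Of 17 genes of the RNA interference machinery 6 were higher and 3 lower. AGO4, an Argonaute protein, was at 61, 59.7 and 55.5 CPM with DMSO and 41.2, 44.2 and 41.8 CPM with the scrambled hairpin. RAN, which carries hairpin precursors out of the nucleus with exportin 5, rose 1.27-fold, and MOV10, a helicase bound to Argonaute, fell 1.34-fold. Of 21 lentiviral restriction and integration factors 11 were lower and 2 higher (6 lower with the 6 libraries alone). APOBEC3G, a deaminase that mutates retroviral DNA, and MX2, which blocks nuclear entry of lentiviruses, were 1.38-fold and 1.15-fold lower. PPHLN1, a subunit of the HUSH silencing complex, rose 1.21-fold. Of 14 drug efflux and puromycin-linked genes 3 were higher and 4 lower, which is near the share over all genes (14.9% higher and 16.5% lower). NPEPPS, the puromycin-sensitive aminopeptidase, was at 75.7, 74.7 and 70.6 CPM and 41.5, 43.8 and 44.8 CPM (log2 change -0.76 ± 0.04 SE, adjusted p = 7.98e-13, edgeR).

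The genes that the targeting reagents of the study act on differed little between the controls. EHMT2, which encodes G9a, was at 127, 147 and 163 CPM with DMSO and 139, 139 and 154 CPM with the scrambled hairpin (log2 change -0.02 ± 0.06 SE). EHMT1, which encodes GLP, was at 78.7, 87.4 and 84.2 CPM and 87.8, 82.2 and 83.5 CPM, and SUV39H1 was at 51.7, 58.7 and 60.2 CPM and 59.8, 56.5 and 58.3 CPM. The groups overlapped in these 3 genes and none passed (adjusted p between 0.735 and 0.834, edgeR). SUV39H2, the paralog of SUV39H1, was at 29.2, 25.7 and 25.2 CPM and 30.1, 34.4 and 29.9 CPM and rose by 0.24 ± 0.06 SE on the log2 scale (0.00549 adjusted p, edgeR). Without scrambled replicate 2 its change was 0.16 and its adjusted p was 0.0766. Of 33 genes of the H3K9 methylation machinery 5 were higher (15.2%) and 8 lower (24.2%), against 14.9% and 16.5% of all genes. The median log2 change of that list was -0.04. Among the lower ones KDM3A, KDM4B and CBX1 fell by 1.01, 0.59 and 0.37 on the log2 scale.

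Transcripts of repeats and transposons were counted in a table of their own. Of 928 repeat names tested, 82 (8.84%) were called, 36 higher (3.88%) and 46 lower (4.96%). The 40 Alu names summed to 20418 to 21457 CPM with DMSO and 20485 to 20898 CPM with the scrambled hairpin, so the groups overlapped, and their median log2 change was -0.02. Of 18 young LINE-1 names 1 was higher. The largest fall among abundant repeats was that of HERVE-int, the internal part of an endogenous retrovirus, at 56.3, 59.5 and 60.6 CPM of the gene library with DMSO and 32.5, 33 and 37 CPM with the scrambled hairpin (log2 change -0.78 ± 0.06 SE, adjusted p = 5.44e-11, edgeR). SST1, a satellite repeat, was at 236, 264 and 271 CPM and 146, 152 and 161 CPM (log2 change -0.75 ± 0.06 SE, adjusted p = 4.87e-10, edgeR). L1P4e, a LINE-1 fragment, was 2.06-fold lower at under 2 CPM, and Eulor2B, UCON27 and GSATII were 1.63-fold to 1.65-fold lower.

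Among the rising repeats L1M4c, an old LINE-1, was the most abundant, at 204, 171 and 171 CPM with DMSO and 240.0, 252 and 213 CPM with the scrambled hairpin. L1PB3 and MER67C rose 1.3-fold and 1.29-fold, ALINE 1.48-fold, and MER110-int and LOR1b 1.61-fold and 1.26-fold. The number of rises depended on single libraries. The number of higher repeats was 10 without scrambled replicate 2, 18 without DMSO replicate 2 and 18 without DMSO replicate 3, and the number of all called repeats was 44 without scrambled replicate 2 and 49 without DMSO replicate 3. Of the named repeats, MER110-int, LOR1b, UCON27 and GSATII lost their call in at least 1 of these fits, and HERVE-int, SST1, Eulor2B, L1P4e, L1PB3, L1M4c, MER67C and ALINE kept it. Copies of a repeat can lie inside transcribed genes, so a change of the host gene and of the repeat cannot be told apart here.

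Markers of other cell types were mostly near 0 in both groups. Of 20 lymphocyte genes 16 were under 1 CPM in all 6 libraries and 9, among them CD3D, CD3E and CD3G, were at 0. Of 20 erythroid and megakaryocyte genes 16 were under 1 CPM and 8, among them HBB and GATA1, were at 0, and of 19 epithelial and fibroblast genes 17 were under 1 CPM and 8 were at 0. The tested lymphocyte genes summed to 219 to 252 CPM with DMSO and 202 to 217 CPM with the scrambled hairpin. The tested erythroid genes summed to 388 to 431 and 475 to 493 CPM, and the tested epithelial genes to 2.62 to 3.23 and 2.59 to 2.75 CPM. Of 11 markers of the kidney line used to package virus, 9 were under 1 CPM in all 6 libraries. The summed level of that list was 25.7 to 27.4 CPM in the scrambled libraries and 51.4 to 57.7 CPM in the DMSO libraries, and nearly all of it was ENO2, which is also a hypoxia gene. In bulk RNA, fewer cells of a state and less RNA per cell cannot be told apart. Of the myeloid genes, ELANE was at 467 and 465 CPM and the progenitor factor MYB at 706 and 756 CPM. Of 24 myeloid progenitor and granule genes 3 were under 1 CPM in all 6 libraries. Among these were CD34, at 0.03 and 0.01 CPM, and KIT, at 0.42 and 0.55 CPM. Of 35 monocyte and macrophage markers 13 were under 1 CPM in all 6 libraries. CD14 was among them, and MRC1, MSR1 and MAF were at 0. Others of that list were abundant, such as ITGB2, at 1099 and 718 CPM, and CD93, at 1015 and 944 CPM.

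With the other 18 libraries added, 1 of the controls lay outside all the rest in a minority of genes. All 3 scrambled libraries lay below each of the 21 others in 830 genes (4.12%) and above them in 972 genes (4.82%). All 3 DMSO libraries lay below the others in 52 genes (0.258%) and above them in 127 genes (0.63%). The same count for hairpin 2 against SUV39H1 was 2851 genes below and 2663 above, and for the lower UNC0638 dose it was 40 and 47. Groups with a close relative, such as the 2 hairpins against G9a, have fewer such genes by construction, so the counts describe the set of groups and not the size of an effect.

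The gene groups differed in which control was the outlying one. Among the 36 hypoxia and glycolysis genes the DMSO libraries were above all others in 14 and the scrambled libraries below all others in 3. Among the 40 MYC and ribosome biogenesis genes the scrambled libraries were above all others in 22, among 29 sterol genes in 11 and among 19 heat shock genes in 8. Among 36 lysosome genes they were below all others in 16, and among 72 interferon-stimulated genes in 19. The DMSO libraries were the extreme ones in none of the MYC, heat shock, lysosome and interferon lists and, from below, in 1 sterol gene.

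The hypoxia and glycolysis list summed to 20010 CPM with DMSO and 18441 and 17400 CPM with 2 and 4 µM UNC0638. It summed to 16761 CPM with the scrambled hairpin and 15464 and 16039 CPM with the G9a hairpins. With SUV39H1 hairpins 2 and 4 it summed to 13531 and 12052 CPM. The scrambled libraries (16454 to 17243 CPM) overlapped those with 4 µM UNC0638 (16674 to 18384 CPM). PFKFB4 was split more clearly. Its mean was 82.7 CPM with DMSO, 66.5 and 48.4 CPM with 2 and 4 µM UNC0638, 18.3 CPM with the scrambled hairpin, 11.4 and 12.8 CPM with the G9a hairpins and 34.6 and 20.8 CPM with SUV39H1 hairpins 2 and 4. For PFKFB4 all 5 hairpin groups were thus below all 3 groups without a hairpin. NDRG1 was also lower in all 5 hairpin groups, but with the scrambled group lowest, from 280.0 CPM with DMSO and 172 to 197 CPM with UNC0638 to 88.8 to 142 CPM with the targeting hairpins and 64.9 CPM with the scrambled one.

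HMOX1 followed another order. Its mean was 105 CPM with DMSO, 80.5 to 96 CPM with UNC0638, 26.6 to 27.9 CPM with the G9a hairpins and 75.1 to 91.1 CPM with the SUV39H1 hairpins, all above the 8.81 CPM of the scrambled group. PLIN2 was at 71.7 CPM in the scrambled group, against 156 CPM in the next lowest group and 450.5 CPM with SUV39H1 hairpin 2. INSIG1, at 97.4 CPM, and HSPA8, at 4077 CPM, were highest in the scrambled group, and their next highest group, 4 µM UNC0638 for both, had 71 and 3274 CPM. SPP1 was low in the scrambled group (0.74 CPM) and at a similar mean with G9a hairpins (0.755 and 0.832 CPM), and 16.7 to 25.7 CPM without a hairpin.

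**Figure D4:**
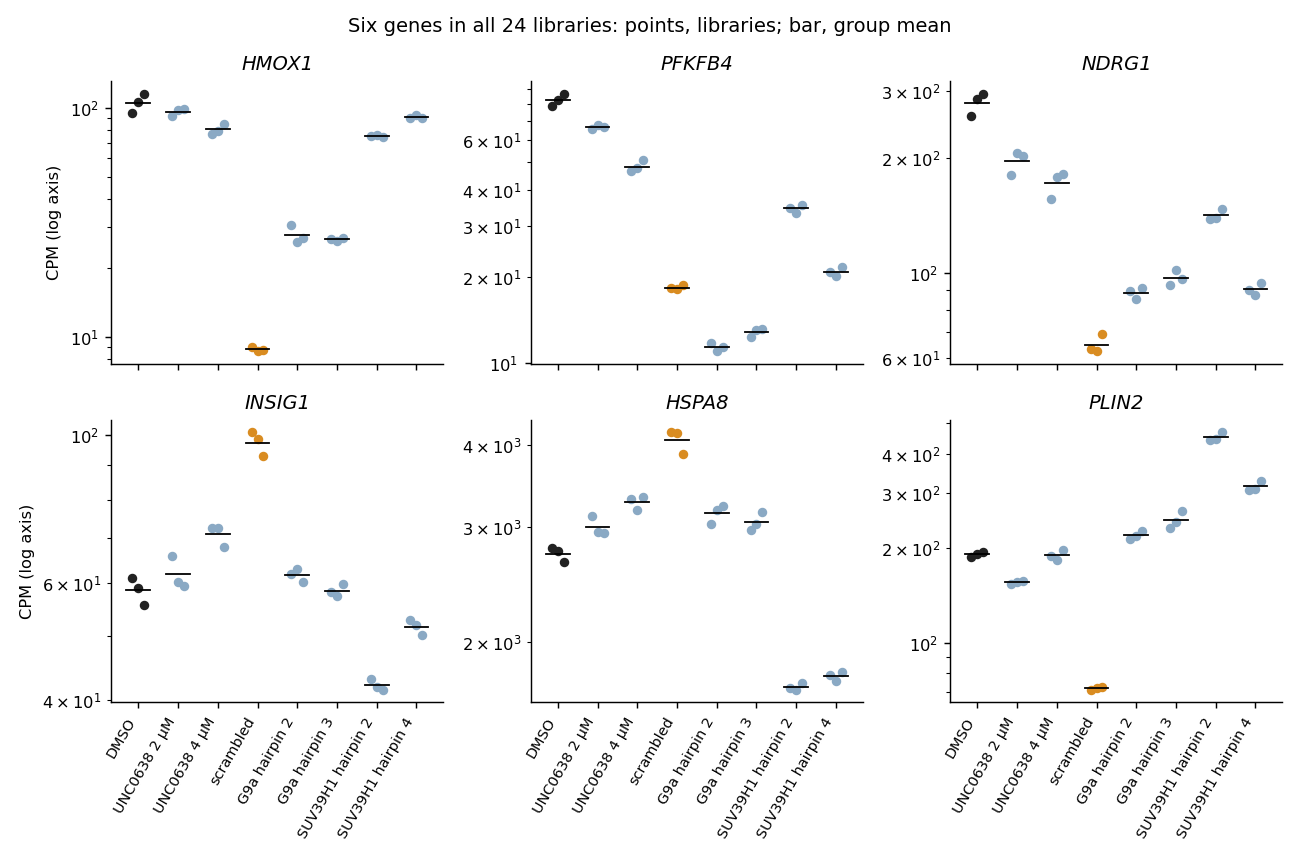
Level in CPM (log axis) of 6 genes in all 24 libraries by group, with points for libraries and a bar for the group mean of 3. DMSO is black and scrambled orange. PFKFB4 is low in all hairpin groups, whereas HMOX1, PLIN2, INSIG1 and HSPA8 set the scrambled group apart from the other hairpin groups as well.

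A second comparison of cells with and without a hairpin shares no library with the first: the mean of the 4 groups with a targeting hairpin against the mean of the 2 UNC0638 groups. It differs also in the target enzymes, so it is not a repeat of the control comparison. It called 13558 of 20147 genes (67.3%), 6547 higher (32.5%) and 7011 lower (34.8%). Of the 3328 genes lower in scrambled cells, 1290 (38.8%) were lower in this comparison, 18.4% of its lower calls, and 1260 (37.9%) were higher. Of the 2993 genes higher in scrambled cells, 739 (24.7%) were higher, 11.3% of its higher calls, and 1621 (54.2%) were lower. Of the 229 genes at least 2-fold lower in scrambled cells 113 were lower and 40 higher.

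By group, 27 of the 29 lower hypoxia and glycolysis genes were lower here too, and the median log2 change of that list was -0.41 in this comparison and -0.42 in the controls. PFKFB4 changed by -1.66, STC1 by -3.60, ADM by -1.63 and MIR210HG by -1.94 on the log2 scale. Of the 50 lower interferon-stimulated genes 29 were lower and 13 higher here. That list summed to 4229 and 5465 CPM with 2 and 4 µM UNC0638 and 2587 and 2590 CPM with the G9a hairpins. With SUV39H1 hairpins 2 and 4 it summed to 8961 and 4602 CPM. The G9a hairpins thus lay below both UNC0638 groups, SUV39H1 hairpin 2 above both and hairpin 4 between them. The MYC, heat shock and sterol lists, higher in scrambled cells, ran mostly the other way, and the endoplasmic reticulum list did not: of its 14 higher genes 8 were higher here and 3 lower. All 34 higher MYC and ribosome biogenesis genes were lower with the targeting hairpins than with UNC0638, as were all 13 heat shock genes and 14 of the 22 sterol genes. The hairpins were not alike in this. The MYC and ribosome biogenesis list summed to 8672 and 8842 CPM with UNC0638, 8601 and 8408 CPM with the G9a hairpins and 4975 and 6034 CPM with the SUV39H1 hairpins. The heat shock list summed to 12719.6 and 13452 CPM with UNC0638, 12840.1 and 12586 CPM with the G9a hairpins and 7709.6 and 9019.9 CPM with the SUV39H1 hairpins. Both G9a hairpins were thus close to UNC0638 in these lists, and both SUV39H1 hairpins were well below it. Of the 26 lower lysosome genes 17 were higher here and 7 lower. The lysosome list summed to 7311 and 8319 CPM with UNC0638, 6869.7 and 7171 CPM with the G9a hairpins and 11192 and 8491 CPM with the SUV39H1 hairpins. The G9a hairpins thus lay below both UNC0638 groups and the SUV39H1 hairpins above them, and these differences between list sums were not tested.

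**Figure D5:**
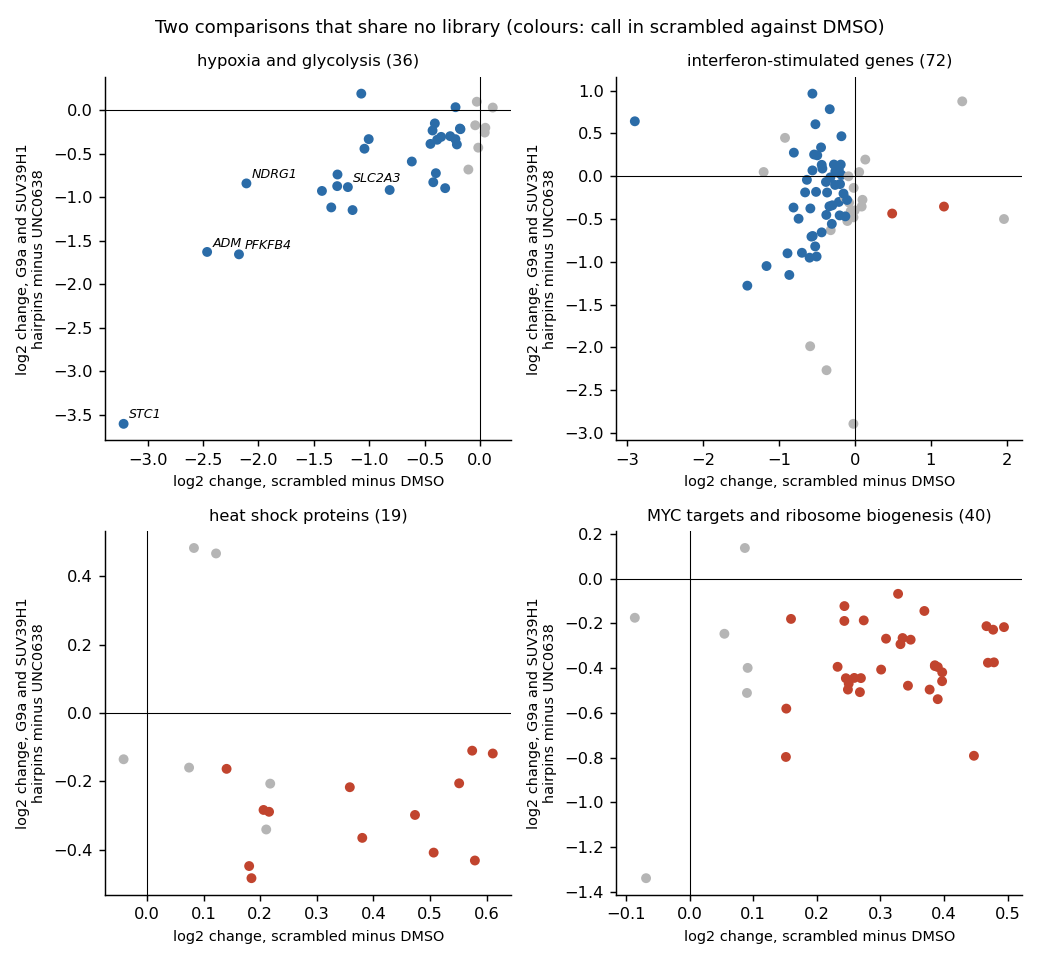
Log2 change of scrambled against DMSO (horizontal axis) and of G9a and SUV39H1 hairpins against UNC0638 (vertical axis) for the members of 4 gene lists. Points are genes, coloured by the call in scrambled against DMSO. Hypoxia genes lie mainly at the lower left, and heat shock and MYC genes mainly at the lower right.

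A few genes were at nearly 1 level in the other 7 groups and lower in scrambled cells alone. This rule was set after the values were seen and carries no test: the other 7 group means of at least 2 CPM lie within 1.5-fold of each other, and all 3 scrambled libraries lie on 1 side of the 21 others with a gap of over 25%. Of 8176 genes level in this sense 21 were lower in scrambled cells and 1, PAGE1, was higher. The same rule gave 0 lower and 1 higher gene for DMSO, 272 and 135 for SUV39H1 hairpin 2, 40 and 7 for SUV39H1 hairpin 4, and no gene for the UNC0638 and G9a hairpin groups. Such genes were therefore not particular to the scrambled group, and pairs of like groups limit the count. TULP3, a ciliary trafficking protein, was at 7.54, 8.27 and 7.999 CPM in the scrambled libraries and between 19.9 and 25.7 CPM in all 21 others. KIAA1467 was at 12.5 CPM against 24 to 33.7 CPM, and CCDC90B was at 17 CPM against 28.8 to 37.3 CPM. CMTM3 was at 50.2 CPM against 79.4 to 88.9 CPM.

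ARPC3, a subunit of the actin-nucleating Arp2/3 complex, was at 139 CPM in scrambled cells against 228 to 274 CPM elsewhere. COX7C and NPEPPS, described above, belong to this set as well. COX7C was at 75.1 CPM against 119 to 201 CPM, and NPEPPS was at 43.3 CPM against 61.7 to 75.7 CPM. The sequence of the scrambled hairpin was not used here, so any match to these transcripts was not tested.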

How the data were processed

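Per the labels' protocols, library preparation used the TruSeq RNA v2 kit. It keeps no strand, so a gene and an overlapping antisense gene share reads. The deposited gene and repeat tables hold whole-number counts, for which the submitters' processing notes name STAR, featureCounts and hg19 without versions. How multiply mapped reads were counted is not given in the sources used here.

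Low genes were removed with edgeR 4.0.16 in R 4.3.3 (filterByExpr, counts of 10 and a total of 15). TMM factors were computed, and 1 quasi-likelihood fit over all 24 libraries gave each of 8 groups a mean, from which scrambled minus DMSO was taken. Repeats were scaled by the gene counts of the same library, TMM included. On simulated counts for this comparison, among 20147 genes with 50 changed at each size, 46%, 62%, 86% and 92% were called at 1.2, 1.5, 2 and 4-fold, and 6.54% of calls were false.

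Genes were named by rule: 4 methyltransferase genes; the 15 largest log2 rises and falls and the 6 largest CPM rises and falls (called, mean of at least 2 CPM, groups apart, no clone-based symbol); the 3 smallest p-values of each of 33 lists with at least 3 calls; and 6 rising and 6 falling repeats. Other genes are named as list members, chosen after their values were seen. Some genes the rule names are not reported here. Members and lists were chosen with earlier results of these data known. Alternatives were the 6 libraries alone, RLE scaling, no filter, DESeq2 1.42.0, the replicate number as a block, and each library left out.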

Additional observations from a re-analysis of the deposited data

How the results depend on the processing

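Outside leave-one-out fits, 760 of 762 values of named genes kept their direction and side of the threshold, and so did all 84 of named repeats. The exceptions were both of FTL. The count of genes higher at least 2-fold fell to 39 with the 6 libraries alone and to 35 with DESeq2. The other counts over all genes or all repeats stayed within 1.5 times of those reported under these settings. Of 951 counts and medians of single lists under these settings 80 moved further than that or than the spread between libraries, among them the lower cell cycle genes (5 in place of 11 with the 6 libraries alone). With the replicate block 6838 genes and 83 repeats were called in 24 libraries, and 6420 genes and 63 repeats in 6. Without the block these counts were 6321 genes and 82 repeats in 24 libraries, and 4345 genes and 70 repeats in 6. The labels state no pairing of the replicate numbers. Deviations of same-numbered libraries correlated at 0.21, -0.13 and 0.41, and those of differently numbered libraries at -0.47 to 0.32. Whether the numbers pair the libraries is thus not settled here. With 1 library left out, 5015 to 6742 genes, 44 to 79 repeats and 10 to 41 higher repeats were called. The log2 change of SUV39H1 then ranged from -0.023 to 0.079, of EHMT1 from -0.013 to 0.047 and of EHMT2 from -0.10 to 0.066, so these 3 have no direction here. The cause of these shifts was not tested. Genes under about 1 CPM are limited by depth.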
